A study of Mus musculus with 11 samples.

Results

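The miR-183 cluster, made up of miR-183 with miR-96 and miR-182, is a set of miRNA hairpins that are encoded next to each other and transcribed in the same direction. Its members were taken by name as all rows of the deposited table for the hairpins miR-183, miR-96 and miR-182, and both arms of each hairpin were listed. This gave 6 of the 592 mature miRNAs of the table. The cluster was followed in male C57BL/6 mouse embryonic stem (mES) cells that carry a floxed Trim71 allele and, per the study's methods, a Rosa26-CreERT2 allele. Trim71 is an RNA binding protein of the Tripartite motif family. Trim71-/- cells had been treated with 500 nM 4-hydroxytamoxifen (4-OHT) for 2 days and cultured for at least 7 more days, per the labels, whereas Trim71fl/fl cells are the same conditional cells without the deletion and received the solvent DMSO according to the methods. The methods give a lower concentration of 4-OHT and a shorter culture than the labels, and the labels are followed here. The loss of Trim71 and the exposure to 4-OHT therefore cannot be told apart. Both groups were sorted for SSEA-1, a surface marker of undifferentiated cells, and Trim71 mRNA is not part of this table. On each of days 1, 5 and 6 there was 1 library per genotype of clone 1, and on days 3 and 4 there was 1 per genotype of clone E3, which gave 5 same-day pairs from 2 clones. A further Trim71fl/fl library of clone E3 from day 2 had no partner.

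A miRNA hairpin is cut by Drosha and Dicer into a duplex whose arms are called 5p and 3p. Usually 1 arm, the guide, is kept in the Argonaute protein and directs it to mRNAs by its seed, the bases 2 to 8, while the other arm is largely degraded. The cluster is known above all from sensory cells such as photoreceptors and the hair cells of the inner ear, where changes in the seed of miR-96 cause hearing loss. Its members are also found in epithelial and in pluripotent cells, and Foxo transcription factors are among their described targets.

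The mature sequences are shown because the arms and their seeds define the members. They were taken from RefSeq on GRCm38.p6, are written 5′ to 3′, and carry the seed (bases 2 to 8) in capitals.
miR-183-5p: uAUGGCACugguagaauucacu
miR-96-5p: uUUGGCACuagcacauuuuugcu
miR-182-5p: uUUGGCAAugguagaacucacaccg
miR-183-3p: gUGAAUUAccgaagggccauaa
miR-96-3p: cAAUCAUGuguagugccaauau
miR-182-3p: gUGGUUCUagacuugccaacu
The 5p members are related but do not have the same seed. miR-96-5p and miR-182-5p begin with the same 7 bases, UUUGGCA, and differ at the last base of the seed. miR-183-5p and miR-96-5p share the run UGGCACU from base 3 to base 9, and miR-183-5p and miR-182-5p share UGGUAGAA from base 9 to base 16. The closest pair was miR-183-5p and miR-182-5p, which differed at 4 bases when laid side by side without a gap. No pair of 3p members shared a run of more than 6 bases. Among the 463 miRNAs of the table for which RefSeq gave a sequence, the bases 2 to 7 of a member were found only in miR-96-5p and miR-182-5p themselves. miR-1271-5p, a known relative that shares bases 2 to 8 with miR-96-5p, is not listed in the table.

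The hairpins lie on the minus strand of chromosome 6 of GRCm38 within 3820 bases, chr6:30165918-30169737. In the direction of transcription Mir183 (chr6:30169668-30169737) comes first, Mir96 (chr6:30169446-30169551) follows after 116 bases and Mir182 (chr6:30165918-30165992) after a further 3453 bases. In GENCODE M21 no other gene overlapped any of these hairpins, so that they are intergenic, and the nearest protein-coding genes were Nrf1, 12459 bases away, and Ube2h, 41551 bases away.

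The values are DESeq2-normalized read counts per mature miRNA that the authors had corrected for batch and raised to at least 1. They sum to 3751519 to 5551715 in the Trim71-/- and to 2742673 to 4332525 in the Trim71fl/fl libraries of the pairs. The highest and the lowest of these sums belong to the Trim71-/- and the Trim71fl/fl library of day 5. These sums are not a sequencing depth, which was not determined here. For each member the libraries of a day had a sum that was equal across days, within 0.1%. The same held for 591 of the 592 miRNAs when pairs with a value at the floor were left out. Same-day libraries thus mirror each other around a fixed mean, each pair holds 1 difference, and the SD of the genotypes is equal by construction. A member that is higher in Trim71-/- cells on every day therefore also has groups that do not overlap. For each member, the unpaired library of day 2 had the average value of the remaining Trim71fl/fl libraries and adds no measurement of its own. No value of a member was at the floor of 1. The labelled cell type was checked with its typical miRNAs. The miR-290 to miR-295 group and miR-302 with miR-367, which mark mES cells, held 55.5% to 59.7% of the summed values in Trim71-/- and 56.8% to 59.8% in Trim71fl/fl libraries.

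The 5p miRNAs of the cluster were among the most abundant miRNAs of these cells. By the mean normalized read count of the 10 paired libraries, miR-182-5p (161280) ranked 6th of 592, miR-183-5p (109255) 12th and miR-96-5p (32974) 15th. The 3p miRNAs were far lower, with 249 for miR-183-3p (rank 240), 102 for miR-96-3p (rank 329) and 83.9 for miR-182-3p (rank 353). Dividing each mean by the length of the mature miRNA, between 21 and 25 bases, left this order as it was. Together the 6 members held 7.36% ± 0.522 (SD, n = 5) of the summed values in Trim71-/- libraries and 7.49% ± 0.729 (SD, n = 5) of those in Trim71fl/fl libraries, with overlapping ranges of 6.67% to 7.84% and 6.54% to 8.25%. At least 99.7% of the value of the cluster came from its 5p members in every library.

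**Figure D1:**
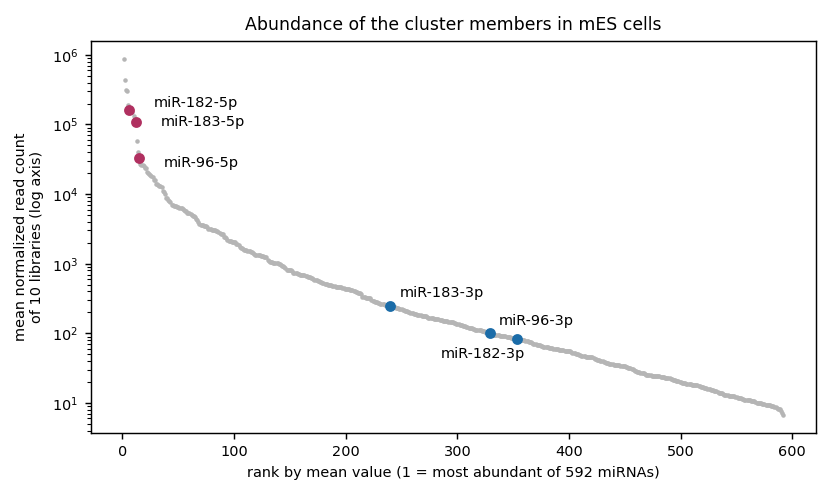
Mean normalized read count of the 10 paired libraries (log axis) against the rank of each of the 592 miRNAs, in grey, with the 5p members of the cluster in red and the 3p members in blue. The 5p members sit at ranks 6, 12 and 15 and the 3p members at ranks 240, 329 and 353.

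The order of the levels was not the same in every library. In 7 of the 10 paired libraries it ran miR-182-5p, miR-183-5p, miR-96-5p, miR-183-3p, miR-96-3p and miR-182-3p. The Trim71fl/fl library of day 4 had more miR-183-5p than miR-182-5p, and that of day 5 had less miR-183-5p than miR-96-5p. Neither miR-182-5p and miR-183-5p nor miR-183-5p and miR-96-5p were therefore separated beyond their spread, whereas miR-182-5p lay above miR-96-5p and miR-183-3p above both other 3p members in all 10 libraries. Between miR-96-3p and miR-182-3p the first was higher in 8 of 10 libraries.

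The comparison between the genotypes asked whether the cluster changes when Trim71 is lost. With day as a block in a limma fit of log2(value + 1) over all 592 miRNAs, none of the 6 members passed the criteria of an unadjusted p under 0.05 and a change of more than 1.5-fold, whereas miR-96-3p passed them in 6 of 18 alternative fits. In the fit with the block, these thresholds were passed upwards by 0.845% and downwards by 4.56% of the 592 miRNAs, and an unadjusted p under 0.05 by 0 of the 6 members and 5.41% of all miRNAs. The share of miRNAs with an adjusted p under 0.05 was 0%, with a lowest adjusted p of 0.607. The fitted log2 fold change was above 0 in all 6 members with the values as deposited, which held for 51.2% of all miRNAs, and in 4 of the 6 after scaling to library totals. The median of the members was 0.31, beside 0.03 for all miRNAs. Since nothing in the labels says that the days are separate derivations of cells, p-values concern only these day pairs of 2 clones. limma also draws the variance of each miRNA towards that of all miRNAs, so its p-values and intervals reflect both. The same-day differences of miR-96-5p had an SD of 0.22, beside a median of 0.93 over all miRNAs. Its standard error in the fit is therefore larger than its own spread would give.

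On the values as deposited, miR-96-5p, whose seed is tied to hearing, had the steadiest same-day differences of the cluster. On days 1, 3, 4, 5 and 6, in this order, the normalized read count of miR-96-5p was 36347, 40256, 33289.8, 36797 and 35955 in Trim71-/- cells. The Trim71fl/fl libraries of the same days, which are given in this order throughout, had 29602, 25692, 32658, 29151 and 29993. Every Trim71-/- library was higher than every Trim71fl/fl library, a separation that 5.24% of all miRNAs showed in this direction and 6.25% in the other. The means were 36529 ± 2491 (SD, n = 5) and 29419 ± 2491 (SD, n = 5), 24.2% higher in Trim71-/- cells. The log2 fold change was 0.31 (standard error 0.23, 95% interval -0.26 to 0.89), with an unadjusted p of 0.228 and an adjusted p of 0.645 from limma. Exchanging the genotypes within each day in all possible ways, an exact two-sided permutation test, gave p = 0.062, the smallest value that 5 pairs allow. On day 4 the difference was 0.03 on the log2 scale and on day 3 it was 0.65. As a share of the library total, miR-96-5p was above its same-day Trim71fl/fl value on 4 of 5 days, and the groups overlapped. The SD of the same-day log2 differences was then 0.45 for miR-96-5p and 0.30 for miR-182-5p, which was the steadier of them on this scale.

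The other arm, miR-96-3p, which is not the guide in most tissues, had the largest fitted difference of the cluster. Its normalized read counts by day were 137, 111, 163, 121 and 111 in Trim71-/- cells and 67.0, 92.1, 40.8, 82.5 and 92.8 in Trim71fl/fl cells. These groups did not overlap either. The means were 129 ± 21.8 (SD, n = 5) and 75.0 ± 21.8 (SD, n = 5), a ratio of 1.71. The log2 fold change was 0.81 (standard error 0.34, 95% interval -0.02 to 1.64), with an unadjusted p of 0.0541 and an adjusted p of 0.607 from limma, and p = 0.062 from the exact permutation. Of the 592 miRNAs, 36 had a smaller p and 65 a larger log2 fold change. Day 4 contributed most, with a same-day difference of 1.97, and without that pair the log2 fold change was 0.52. When day was left out of the model, so that the libraries were not paired, miR-96-3p passed the thresholds (unadjusted p = 0.00752, adjusted p = 0.114 from limma), and 42 of the 592 miRNAs then passed them upwards. Because same-day libraries mirror each other, such a fit counts each difference 2 times and its p-values are too small by construction. With the block kept, miR-96-3p also passed with a pseudocount of 10 (unadjusted p = 0.0464 from limma), among miRNAs with a mean of at least 100 (0.0460) and on untransformed values (0.0418). Divided by library totals, its log2 fold change was 0.54, it was higher on 4 of 5 days and the groups overlapped.

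miR-182-5p, the most abundant member and a major miRNA of the retina, did not separate the genotypes. By day, the Trim71-/- libraries had normalized read counts of 153004, 157921, 169452, 200579 and 180703. In Trim71fl/fl cells they were 169555, 164638, 153107, 121980 and 141856. The Trim71-/- library was lower on days 1 and 3 and higher on the other days, and the groups overlapped. The log2 fold change of 0.20 (standard error 0.25, 95% interval -0.42 to 0.82, adjusted p = 0.729 from limma) turned to -0.069 on the scale of library totals, and was 0.07 with the day 5 pair left out. For miR-182-3p, the low arm of this hairpin, the values ranged from 52.2 to 126 in Trim71-/- and from 41.7 to 116 in Trim71fl/fl cells. On the log2 scale miR-182-3p differed by 0.32 (standard error 0.42) with a limma adjusted p of 0.740. The same-day difference was -1.13 on day 3 and above 0 on the other 4 days, up to 1.58 on day 4. Omitting day 4 left a log2 fold change of 0.0012 for miR-182-3p, and omitting day 3 left 0.68.

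miR-183-5p, the first miRNA of the transcript, was the most variable 5p member. Its normalized read counts by day were 110380, 123660, 46943, 190645 and 123748 in Trim71-/- cells. The Trim71fl/fl libraries had 108130, 94850, 171567, 27864 and 94762. Days 4 and 5 thus went in opposite directions, by -1.87 and 2.77 on the log2 scale, while the other days lay between 0.03 and 0.39. As shares of the library total, days 4 and 5 differed by -1.66 and 1.76, and the other days lay between -0.18 and 0.26. The means of 119075 ± 51097 (SD, n = 5) and 99435 ± 51098 (SD, n = 5) overlapped widely, and the log2 fold change was 0.34 (standard error 0.64, 95% interval -1.22 to 1.90, adjusted p = 0.831 from limma). Omitting day 5 turned it to -0.27, and omitting day 4 raised it to 0.89. Among the 37 miRNAs with a mean of at least 10000, a limit chosen after the values were seen, the SD of the 5 same-day log2 differences had a median of 0.76. It was 1.65 for miR-183-5p, which placed it 5th, 0.35 for miR-182-5p, placed 32nd, and 0.22 for miR-96-5p, placed 36th.

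miR-183-3p, the low arm of this hairpin, ran against miR-183-5p on most days. Its normalized read counts by day were 315, 247, 329, 179 and 244 in Trim71-/- cells and 182.9, 251, 169, 319.7 and 254 in Trim71fl/fl cells. It was higher in Trim71-/- cells by 0.96 on day 4, where miR-183-5p was lower, and lower by 0.84 on the log2 scale on day 5, where miR-183-5p was higher. As shares of the library total, these differences of miR-183-3p were 1.17 and -1.86. The genotypes overlapped, with a log2 fold change for miR-183-3p of 0.16 (standard error 0.34) and a limma adjusted p of 0.852. It was -0.034 when day 4 was omitted and -0.10 after division by library totals.

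**Figure D2:**
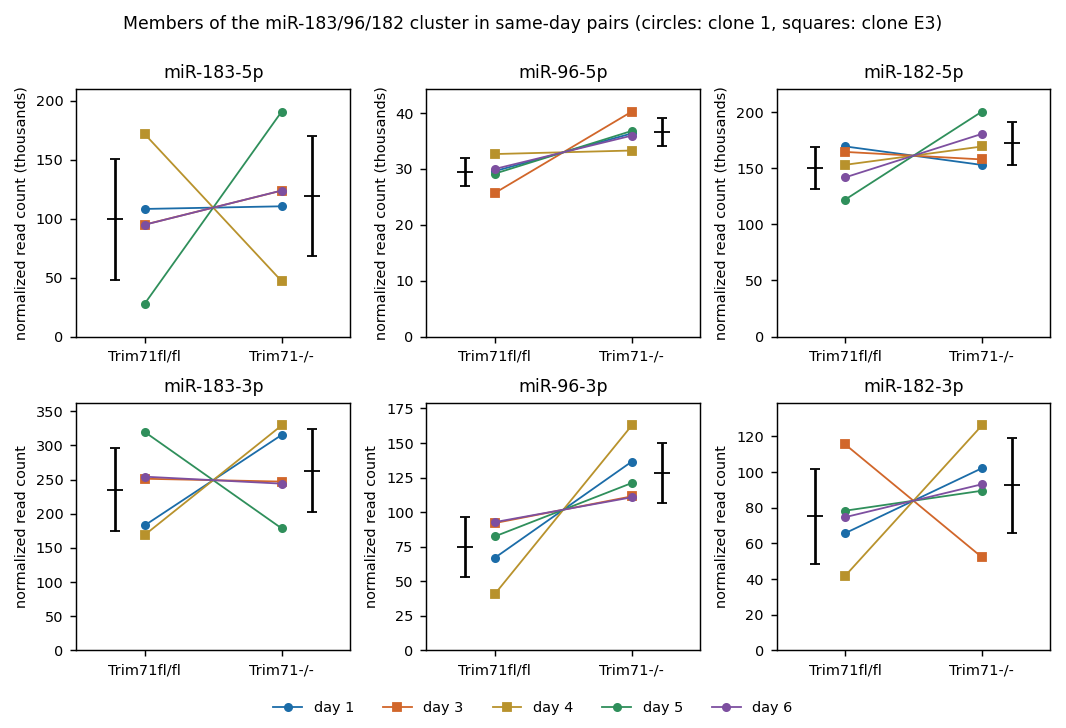
Normalized read counts of the 6 members in the Trim71fl/fl and Trim71-/- libraries, with a line for each same-day pair and bars for the mean and SD (n = 5) of a genotype. All lines of a panel cross at the same height, the fixed same-day mean, and only for miR-96-5p and miR-96-3p do all 5 lines rise.

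**Figure D3:**
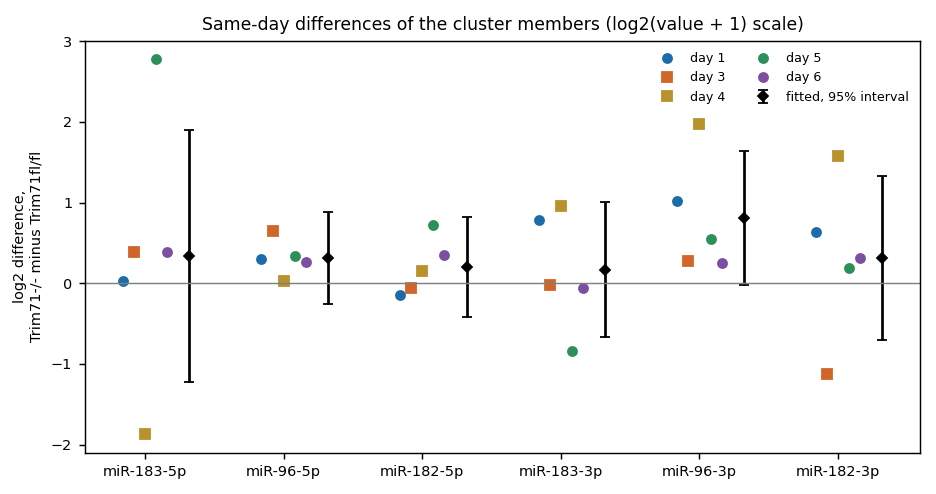
Same-day differences of log2(value + 1), Trim71-/- minus Trim71fl/fl, for each member and day, with the fitted log2 fold change and its 95% interval in black. All intervals include 0, and miR-183-5p spans from -1.87 on day 4 to 2.77 on day 5.

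The same-day differences were compared between members. Across the 5 same-day differences, Pearson's r was -0.92 between the arms of miR-183, -0.77 between those of miR-96 and 0.10 between those of miR-182. Between 5p members it was 0.65 for miR-183-5p and miR-182-5p, 0.48 for miR-183-5p and miR-96-5p and -0.20 for miR-96-5p and miR-182-5p. Between 3p members it was 0.84 for miR-96-3p and miR-182-3p, 0.74 for miR-183-3p and miR-96-3p and 0.56 for miR-183-3p and miR-182-3p. Between the 5p and 3p members of different hairpins it ran from -0.99 for miR-96-5p and miR-182-3p to -0.21 for miR-182-5p and miR-96-3p, all of them negative. These coefficients describe 5 differences that share libraries and their scaling. With so few points large values are frequent, and 57 of the 586 other miRNAs reached an r above 0.9 with miR-183-5p, compared with 3 for miR-96-5p, while an r under -0.9 was reached by 20 with miR-183-5p and by 4 with miR-96-5p. The miRNAs with the pattern most like the median difference of the 5p members, over the same 5 differences, were miR-1306-3p (r = 0.98), miR-466m-3p (0.97), miR-470-5p (0.97), miR-330-3p (0.96) and miR-297b-3p (0.95). This likeness concerns the pattern over days and not the direction, since the log2 fold change was -0.32 for miR-466m-3p and -0.52 for miR-297b-3p, and 15 of 586 miRNAs had an r above 0.9 with this pattern.

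The ratio of the arms of a hairpin does not depend on how a library is scaled. It still depends on the batch correction, which fixed the same-day sum of each arm on its own and does not cancel. Of the 179 hairpins with both arms in the table, miR-182 had the highest mean log2 ratio of 5p to 3p, miR-183 the 6th and miR-96 the 8th. The miR-182 ratio by day was 1497, 3023, 1343, 2239.9 and 1939 in Trim71-/- cells and 2581, 1424, 3674, 1557 and 1899 in Trim71fl/fl cells. For miR-96 it was 266, 361, 205, 304 and 325 on the same days in Trim71-/- cells and 442, 279, 801, 354 and 323 in Trim71fl/fl cells. In fold terms the widest range belonged to miR-183, between 143 on day 4 and 1068 on day 5 in Trim71-/- cells and between 87.1 on day 5 and 1015 on day 4 in Trim71fl/fl cells. All of these groups overlapped.

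A limma fit over all 179 hairpins, with day as a block, found no arm ratio of the cluster past the threshold. The log2 difference was -0.50 (standard error 0.45, adjusted p = 0.835) for miR-96, -0.12 (standard error 0.48, adjusted p = 0.982) for miR-182 and 0.18 (standard error 0.88, adjusted p = 0.982) for miR-183. An adjusted p under 0.05 was reached by 0% and an unadjusted p under 0.05 by 1.68% of the hairpins, none of them of the cluster. For miR-183 the log2 difference became -0.68 with day 5 omitted and 0.93 with day 4 omitted, and for miR-96 it became -0.14 with day 4 omitted. The 95% intervals were wide, from -1.59 to 0.59 for miR-96, from -1.27 to 1.04 for miR-182 and from -1.95 to 2.31 for miR-183.

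**Figure D4:**
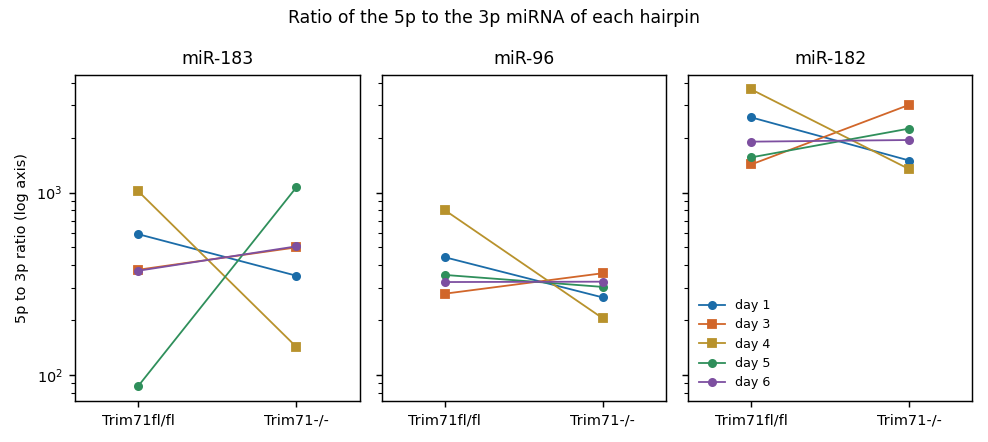
Ratio of the 5p to the 3p miRNA (log axis) of hairpins miR-183, miR-96 and miR-182 in the Trim71fl/fl and Trim71-/- libraries, with a line for each same-day pair. The ratio of miR-183 on day 5 was 87.1 in Trim71fl/fl and 1068 in Trim71-/- cells, and the day 4 pair runs the other way.

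The mix of the 5p members varied with miR-183-5p. In Trim71-/- libraries miR-182-5p made up 46.8% to 67.7% of the cluster, miR-183-5p 18.8% to 44.5% and miR-96-5p 8.59% to 13.3%. In Trim71fl/fl libraries these shares were 42.8% to 68.0%, 15.5% to 48.0% and 8.99% to 16.2%. The ratio of miR-182-5p to miR-96-5p was the steadier one, at 4.74 ± 0.644 (SD, n = 5) in the Trim71-/- group against 5.15 ± 0.89991 (SD, n = 5) in the Trim71fl/fl group. The members summed to 328420 ± 65354 (SD, n = 5) in the Trim71-/- libraries and to 279467 ± 65354 (SD, n = 5) in the Trim71fl/fl ones, and on 3 of 5 days the Trim71-/- library had the larger sum. The mean log2 difference of this sum was 0.25, and was -0.0058 with day 5 omitted, 0.44 with day 4 omitted, 0.52 in the pairs of clone 1, -0.17 in those of clone E3 and -0.024 as a share of the library.

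The clones did not differ detectably in their response. The log2 fold change of miR-183-5p was 1.06 in the 3 pairs of clone 1 and -0.74 in the 2 pairs of clone E3, a difference of -1.81 (standard error 1.16, adjusted p = 0.648 from limma with a genotype by clone term). For miR-96-5p the values were 0.30 and 0.34, for miR-96-3p 0.61 and 1.12, for miR-182-5p 0.31 and 0.04, for miR-182-3p 0.38 and 0.22, and for miR-183-3p -0.038 and 0.47. The adjusted p of this term was at least 0.648 in each member. Of all miRNAs, 0.169% had an adjusted p under 0.05 for this term and 5.57% an unadjusted one, with or without the fold criterion, while 0 of the 6 members did.

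The scaling of the libraries set the level of these differences. When library totals were equalized, the median over all 592 miRNAs went from 0.03 to -0.24 on the log2 scale, and the members went with it, to 0.07 for miR-183-5p, 0.044 for miR-96-5p, -0.069 for miR-182-5p, -0.10 for miR-183-3p, 0.54 for miR-96-3p and 0.049 for miR-182-3p. All 6 members lay above the median of all miRNAs under both scalings. Leaving miR-290 to miR-295 out of the totals gave a median of -0.22 and -0.052 for miR-182-5p, while division by the median ratio to the mean library gave a median of 0.04 and 0.21 for miR-182-5p.

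**Figure D5:**
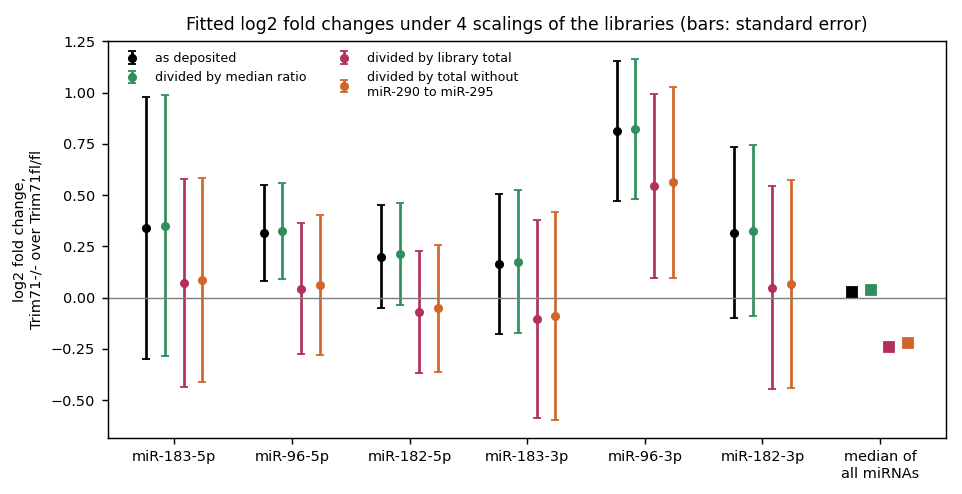
Fitted log2 fold change of each member, with bars for the standard error, from the values as deposited and after the libraries were divided by the median ratio, by their total, or by their total without miR-290 to miR-295. Squares give the median of all 592 miRNAs, which lies at 0.03 as deposited and at -0.24 after division by the total.

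Other miRNAs were set beside the cluster. The miR-200 family (miR-200a, miR-200b, miR-200c, miR-141 and miR-429) is typical of epithelial cells. It was above 0 in 9 of 9 members, with a median log2 fold change of 0.65 and 1 member, miR-200c-3p, past the thresholds. Of all 592 miRNAs, 51.2% were above 0 and 0.845% passed the thresholds upwards. In the family, miR-200a-5p and miR-200c-5p each had 1 value at the floor. The median of the family was 0.42 with day 3 omitted and 0.38 after division by library totals. Its most abundant members were miR-200a-3p (log2 fold change 0.51, unadjusted p = 0.121 from limma) and miR-200b-3p (1.08, unadjusted p = 0.0894 from limma). The same-day difference of miR-200b-3p was 3.48 on day 5 and 0.41 to 0.54 on the other days. Of the retinal miRNAs miR-9, miR-124 and miR-211, 5 arms were listed, all 5 were above 0 and 0 passed the thresholds. Among them miR-211-5p was low, with means of 14.8 in Trim71-/- and 6.78 in Trim71fl/fl cells and 1 value at the floor. The most abundant was miR-9-5p, a miRNA of neural progenitors, with 3707 ± 843 (SD, n = 5) in the Trim71-/- group against 2316 ± 843 (SD, n = 5) in the Trim71fl/fl group and a log2 fold change of 0.76 (unadjusted p = 0.122 from limma). The retinal list had a median of 0.76, or -0.0083 without the pair of day 4. How these lists differ from the cluster was not tested.

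Marker miRNAs of other cell types were measured in the same libraries. Neural miRNAs (miR-9, miR-124, miR-128 and miR-219a) were above 0 in 7 of 8 listed arms and summed to 0.158% to 0.182% of a Trim71-/- and 0.124% to 0.155% of a Trim71fl/fl library. The arms of miR-9 and miR-124 are the same ones as in the retinal list, so these lists are not separate observations. The fibroblast miRNAs (miR-143, miR-145a, miR-199a, miR-199b and miR-21a) were above 0 in 8 of 10 listed arms and summed to 7.37% to 15.0% of a Trim71-/- and 0.491% to 8.42% of a Trim71fl/fl library. Both extremes come from day 5, when miR-21a-5p, which is also widely expressed outside fibroblasts, was at the floor of 1 in the Trim71fl/fl library and held 14.3% of the Trim71-/- library. That Trim71-/- value, 796335, was by itself above the same-day sum of miR-21a-5p on the other days. The value of 1 thus reflects the batch correction and the floor, and is not a measured absence of miR-21a-5p. Without day 5 the sums were 7.37% to 8.84% and 6.87% to 8.42%. Without miR-21a-5p the other fibroblast miRNAs summed to 0.365% to 0.715% and 0.478% to 0.817%. The median log2 fold change of the fibroblast list was 0.19. It turned to -0.077 after division by library totals, -0.10 in clone 1 alone and -0.068 with day 4 omitted. Of the blood miRNAs, miR-142, miR-155 and miR-451a were listed, with 0 of 5 arms above 0 and sums of 0.0134% to 0.0584% of a Trim71-/- and 0.0469% to 0.127% of a Trim71fl/fl library. miR-142-3p, a miRNA of blood cells, fell past the thresholds, from 1689 ± 381 (SD, n = 5) in the Trim71fl/fl group to 847 ± 381 (SD, n = 5) in the Trim71-/- group (log2 fold change -1.11, unadjusted p = 0.0469, adjusted p = 0.607 from limma). It was lower in Trim71-/- cells on 4 of 5 days, and its groups overlapped. No neural or fibroblast marker passed the thresholds. Of the 27 listed arms of the mES cell miRNAs, 13 were above 0 and 14 below, and 0 passed the thresholds. Every listed arm of miR-302 and miR-367 was below 0, between -0.28 and -1.85, while miR-290 to miR-295 went both ways. For all miRNAs, 51.2% were above 0. The part of neural, fibroblast and blood cells in the values of the cluster was not tested. In bulk RNA, fewer cells with a miRNA and less of it per cell cannot be told apart.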

How the data were processed

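Small RNA of 11 mES cell libraries was sequenced, and the authors trimmed the reads with CASAVA and FLICKR, aligned them with Bowtie2 to miRBase and counted them per mature miRNA in Partek Genomics Suite. What was deposited is a signal in units of normalized reads, which the authors had scaled with DESeq2, corrected for batch and raised to at least 1, after which low miRNAs were removed. The lowest larger group mean in the table was 10.1. Raw counts and depths were not used here, so that no counting interval is given. Precision comes from the 5 pairs, with variances that limma moderates over all miRNAs. All 6 members and all lists were chosen with earlier results of these data known.

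The 10 libraries of the 5 same-day pairs were compared over all 592 miRNAs in a linear model of log2(value + 1) on day and genotype, fitted and moderated with limma 3.58.1 (no trend) under R 4.3.3. Adjusted p-values are those of Benjamini and Hochberg. Adding 1 understates the change of low values. The pairing comes from the labels, which give 1 library of each genotype and of the same clone per day. The check of the pairing gave correlations of -0.65 to -0.41 between the log2 deviations within a day, since the batch correction makes their sums equal. Single members were also tested by exact two-sided permutation within days (32 sign patterns). Arm ratios were fitted as log2(5p + 1) - log2(3p + 1) over 179 hairpins. The fit was also run on simulated data, and the outcome of that run is not given here. Named miRNAs were the members, their seed relatives, the most abundant of the lists set beside them, and the 5 with the most similar same-day differences. miR-200c-3p, miR-142-3p and miR-21a-5p were named after their values were seen. Alternatives were the model without the block, clone as block, all 11 libraries, each pair left out, each clone alone, other scalings and pseudocounts (0.1 and 10), limma with trend, untransformed values and a mean of at least 100. Values before the floor equal the deposited ones for the members. Sequences came from RefSeq on GRCm38.p6 and genes from GENCODE M21, on the build of the authors' mm10 annotation. Other steps used Python 3.11.15, pandas 2.3.3 and matplotlib 3.10.9.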

Additional observations from a re-analysis of the deposited data

How the results depend on the processing

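Of the 146 recomputed values of members and arm ratios, 128 kept their direction and their side of the thresholds. miR-96-3p passed the thresholds without the replicate block and with clone as the block (log2 fold change 0.81 in both), with all 11 libraries (0.80), with a pseudocount of 10 (0.74), with miRNAs of a mean of at least 100 alone (0.81) and on untransformed values (0.78), so that 1 member passed in each of these, with adjusted p from limma between 0.0576 and 0.990 over its 18 alternatives. The fits without the block, with clone as block and with all 11 libraries treat mirrored libraries as independent, so that their p-values are too small and the day 2 library adds no measurement. In the other alternatives 0 members passed. The direction turned for miR-183-5p in clone E3 alone (-0.74), for miR-183-3p in clone 1 alone (-0.038) and after division by totals (-0.10) or by totals without miR-290 to miR-295 (-0.087), for miR-182-5p under the same divisions (-0.069 and -0.052), and for the miR-183 arm ratio in clone E3 alone (-1.21). The cause was not tested.

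With each pair left out in turn, the log2 fold change ranged from -0.27 to 0.89 for miR-183-5p, -0.034 to 0.41 for miR-183-3p, 0.23 to 0.39 for miR-96-5p, 0.52 to 0.95 for miR-96-3p, 0.07 to 0.29 for miR-182-5p and 0.0012 to 0.68 for miR-182-3p. The log2 difference of the arm ratio ranged from -0.68 to 0.93 for miR-183, -0.72 to -0.14 for miR-96 and -0.41 to 0.21 for miR-182, which turned without the pair of day 1 (0.05) or day 4 (0.21).

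Over all miRNAs, 5 were higher and 27 lower past the thresholds. Without the replicate block the counts were 42 and 59, with clone as block 36 and 57, and with all 11 libraries 45 and 71. They were 14 and 45 in clone 1 alone, 8 and 28 in clone E3 alone, 8 and 31 with a pseudocount of 10, 2 and 47 after division by totals, 2 and 43 by totals without miR-290 to miR-295, 9 and 19 on untransformed values and 5 and 10 at a mean of at least 100. Leaving out a pair gave 4 to 23 higher and 11 to 44 lower. The depth of the libraries was not determined here, so that it cannot be said how many reads stand behind the 3p members.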
